A study of Mus musculus with 20 samples.

Results

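S100 proteins, galectins, annexins and intermediate filament proteins form a group of small adaptor, carbohydrate-binding, membrane-binding and scaffold proteins that lymphocytes carry in changing amounts as they leave the naive state. The 10 genes described here are S100a4, S100a6, S100a10, S100a11, Lgals1, Lgals3, Anxa1, Anxa2, Vim and Lmna. They were chosen by name: a probe was taken where the gene name in the scanner files was 1 of these 10 symbols. Of 39429 probes on the array, 12 met the rule, 2 each for S100a4 and Anxa1 and 1 each for the other 8 genes. For a gene with 2 probes the brighter one, by its mean log2 intensity over the arrays, stands for the gene. The list was drawn up with intensities of these arrays known, so the levels of the 10 genes over the 12 groups, and the differences between groups, are given as a description. No p-value is printed for them, and where a gene is said to be called, this only states on which side of a fixed threshold it fell.

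S100 proteins are small calcium sensors that change shape on binding calcium and then dock onto target proteins. S100A10 differs from its relatives in that it needs no calcium, and it pairs with annexin A2 at the inner face of the plasma membrane. Galectins bind beta-galactoside sugars on glycoproteins, galectin-1 as a dimer and galectin-3 as a chimeric protein that can form oligomers. Annexins bind phospholipid membranes in the presence of calcium, and annexin A1 is known as a mediator that dampens inflammation. Vimentin builds the cytoplasmic intermediate filaments of lymphocytes and many mesenchymal cells, and lamin A/C, encoded by Lmna, builds the lamina beneath the nuclear membrane and sets how stiff the nucleus is. Effector and memory T cells are known to carry more of several of these transcripts than naive T cells.

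RNA came from CD4 T cells of B6.Cg-Foxp3<tm1Mal> mice, in which Foxp3-expressing cells carry green fluorescent protein (GFP), pooled for each sample from 8 to 15 animals of both sexes aged 8 to 14 weeks. The pLN groups, sorted from peripheral lymph nodes after subcutaneous immunisation with keyhole limpet hemocyanin in alum, were naive T (GFP-, PD1-, GL7-), T follicular helper (TFH; GFP-, PD1 high, GL7+), regulatory T (Treg; GFP+, PD1-, GL7-) and T follicular regulatory cells (TFR; GFP+, PD1 high, GL7+ or GL7-), with 2 arrays per group on day 12 (d12) and 1 on day 25 (d25). The groups from Peyer's patches (PP), with 2 arrays each, were Treg cells, TFR cells and TFH cells split into GL7+ and GL7-, and their labels name no immunisation. All 12 groups share the reporter allele, the naive groups exist for pLN only, and the TFH sort of pLN took GL7+ cells alone. A gate on PD1 and GL7 defines the follicular groups, so each is a mixture within its gate. Errors come from the spread between arrays within groups, pooled over all groups with 2 arrays and moderated across probes. A gene therefore has the same error in every comparison of 2 groups, whatever the spread of those groups. The methods of the study count sorted cell fractions as replicates, with pool sizes other than those of the labels, and the labels tie no array to a sort.

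The 20 arrays lay on 5 slides, each with the 4 groups of 1 tissue and day, so slide and tissue cannot be told apart in the comparison of PP with pLN. The labels give 50 ng of RNA input for the first slide of pLN d12 and the first of PP, and 40 ng for all others. Slide and RNA input therefore cannot be told apart between the 2 arrays of a group. The second TFR array of pLN d12 had a median local background of 268, against 70 to 75 on the other arrays of its slide. Identity genes followed the labels: Foxp3, which specifies Treg cells, gave 13409 to 35129 on the 10 arrays of Treg and TFR cells and 27 to 192 on the other 10 arrays. All intensities are on a linear scale after normalisation, where 20 is the floor. The first array of every PP group lay on 1 slide that stood apart: summed intensity of 8 epithelial marker genes was 11400 to 34061 there, 1004 to 1777 on the second PP slide and 572 to 1669 on the pLN d12 arrays, with Vil1 and Tspan8 well above background on the 4 arrays of that slide only and Elf3 on none. The sum of 13 B cell markers was 25692 to 179162 on that slide against 6741 to 15654 on the second PP slide, with 6790 to 26471 on the pLN d12 arrays. Of 12 myeloid and dendritic cell markers the median intensity was 589 to 1190 on that slide against 137.5 to 289 on the second PP slide, while their sum, mostly Siglech, was 83450 to 87830 against 122870 to 131799. Results on PP cells are therefore also given for each PP array alone, for the 10 genes and for part of the other genes named.

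Promoter sequences were at hand for 8 of the 10 genes, as 9 windows of 300 bases that reach from 250 bases before to 50 bases after a transcription start (RefSeq annotation, GRCm38.p6, printed 5′ to 3′ on the strand of the gene). The 4 shown belong to the genes that set the main contrast of the data: S100a11 was bright in follicular cells and Anxa2 in TFR cells of both tissues, while Vim and Lmna were dim in follicular cells of PP. Capitals mark TGANTCA, the letters of an AP-1 motif, and TATAAA, those of a TATA box, both searched on both strands. The S100a11 window lies on the plus strand at chr3:93520246-93520545, the Anxa2 window on the plus strand at chr9:69453433-69453732, the Vim window on the plus strand at chr2:13574061-13574360 and the first of 2 Lmna windows on the minus strand at chr3:88503303-88503602.
S100a11: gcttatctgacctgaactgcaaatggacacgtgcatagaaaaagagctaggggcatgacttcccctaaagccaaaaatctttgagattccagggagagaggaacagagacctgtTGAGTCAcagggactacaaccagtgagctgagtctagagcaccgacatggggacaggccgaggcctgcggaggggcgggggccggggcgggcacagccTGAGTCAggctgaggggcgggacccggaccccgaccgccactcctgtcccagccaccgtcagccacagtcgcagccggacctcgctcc
Anxa2: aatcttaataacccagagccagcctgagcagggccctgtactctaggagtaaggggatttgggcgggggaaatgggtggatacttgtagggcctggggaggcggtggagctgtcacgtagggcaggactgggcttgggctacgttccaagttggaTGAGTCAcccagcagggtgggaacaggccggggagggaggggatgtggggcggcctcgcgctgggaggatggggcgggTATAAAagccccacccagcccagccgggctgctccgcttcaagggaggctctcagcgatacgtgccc
Vim: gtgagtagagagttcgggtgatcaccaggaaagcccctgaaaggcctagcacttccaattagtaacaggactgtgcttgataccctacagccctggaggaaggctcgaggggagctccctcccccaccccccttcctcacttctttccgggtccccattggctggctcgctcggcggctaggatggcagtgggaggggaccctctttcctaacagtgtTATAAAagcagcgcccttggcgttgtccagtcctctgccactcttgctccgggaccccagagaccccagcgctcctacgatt
Lmna: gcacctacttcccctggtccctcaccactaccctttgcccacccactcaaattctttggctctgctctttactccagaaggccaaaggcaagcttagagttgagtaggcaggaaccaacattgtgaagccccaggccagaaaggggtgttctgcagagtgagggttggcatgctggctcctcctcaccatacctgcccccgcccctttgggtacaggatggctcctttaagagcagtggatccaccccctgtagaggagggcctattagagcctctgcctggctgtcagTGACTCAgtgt

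TGANTCA was found in 3 of the 9 windows, those of S100a11, Anxa2 and Lmna, and in 7.81% of all 32851 windows of this length. The S100a11 window holds it at 136 and 38 bases before the start, the Anxa2 window at 95 bases before the start and the Lmna window at 40 bases into the transcript. TATAAA was found in the windows of Vim, S100a4, Anxa2 and Anxa1, at 32, 31, 17 and 32 bases before the start, and in 13.6% of all windows. The GC box GGGCGG was found in 4 of the 9 windows (Lmna, S100a11, Anxa2 and Lgals3), against 35.7% of all windows. A match says only that these letters are in the window.

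The S100 genes split into a pair that was dim in naive cells and bright in TFH, Treg and TFR cells of pLN, and a pair with other patterns. S100a4 and S100a6 lie near each other on chromosome 3, their probes 8.43 kb apart in the mm9 build (S100a4 probe at chr3:90409734-90409793, S100a6 probe at chr3:90418160-90418219, both on the plus strand). For S100a4, which codes for a binding partner of non-muscle myosin, intensity in pLN d12 was 1858 and 8250 in naive, 68233 and 49835 in TFH, 58728 and 38935 in Treg and 119309 and 111906 in TFR cells. In PP it was 8722 and 4117 in GL7+ TFH, 16707 and 9161 in GL7- TFH, 15477 and 9914 in Treg and 16695 and 10079 in TFR cells. Every pLN array of TFH, Treg and TFR cells thus exceeded every PP array, and the PP arrays, from 4117 to 16707, overlapped the range of the naive arrays. The log2 difference between TFH and naive cells of pLN was 3.90 ± 0.64 (SE, n = 2 arrays per group), and the second S100a4 probe gave 3.88 ± 0.63.

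S100a6, the gene of calcyclin, was likewise dimmest in naive and brightest in TFR cells of pLN, and the TFH and Treg arrays of both genes overlapped. Its intensity in pLN d12 was 1633 and 7783 in naive, 38583 and 49223 in TFH, 39827 and 26852 in Treg and 74050 and 84883 in TFR cells, and in PP it was lowest in Treg cells, at 7562 and 5764, against 12015 and 15156 in TFR cells. Over the 12 group means of log2 intensity, S100a4 and S100a6 had a Pearson r of 0.96, a description over groups that share slides. The naive arrays set the size of the differences from naive cells: the first naive array of d12 minus the second was -2.15 on the log2 scale for S100a4 and -2.25 for S100a6. All 10 genes were dimmer on the first naive array, with a median log2 difference of -0.78, where 43.8% of all tested probes were.

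S100a10, the light chain partner of annexin A2, was bright in every group and varied least by group. Its intensity in pLN d12 was 32595 and 57716 in naive, 30917 and 87446 in TFH, 63045 and 80085 in Treg and 98660 and 137959 in TFR cells. In PP its 8 arrays ranged from 44974 to 126121, and in each PP group the second array was the brighter. Neighbouring groups in the order of means overlapped throughout, and the distance from the dimmest to the brightest of the 12 group means was 1.46 on the log2 scale, against 4.88 for S100a4.

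S100a11, the gene of calgizzarin, was instead brightest in PP. In pLN d12 its intensity was 11991 and 19525 in naive, 22480 and 22587 in Treg, 54376 and 79097 in TFR and 71779 and 95119 in TFH cells. In PP it was 33378 and 30232 in Treg, 115390 and 113844 in TFR, 157484 and 134554 in GL7- TFH and 158615 and 136952 in GL7+ TFH cells. Follicular cells exceeded Treg and naive cells in both tissues with no overlap, by a log2 difference between TFR and Treg cells of 1.54 ± 0.26 in pLN and 1.85 ± 0.26 in PP. The probe (chr3:93330022-93330081, mm9, plus strand) is not specific by its letters: the probe of the gene model Gm5068 (chr12:75062366-75062425, mm9) shares 35 of 39 aligned bases with it, among them 19 bases in a row,
S100a11 and Gm5068: agcatgccatgattctttc
and the 12 group means of the probes for S100a11 and Gm5068 had r = 0.9995. The signal of both can therefore come from either transcript.

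**Figure D1:**
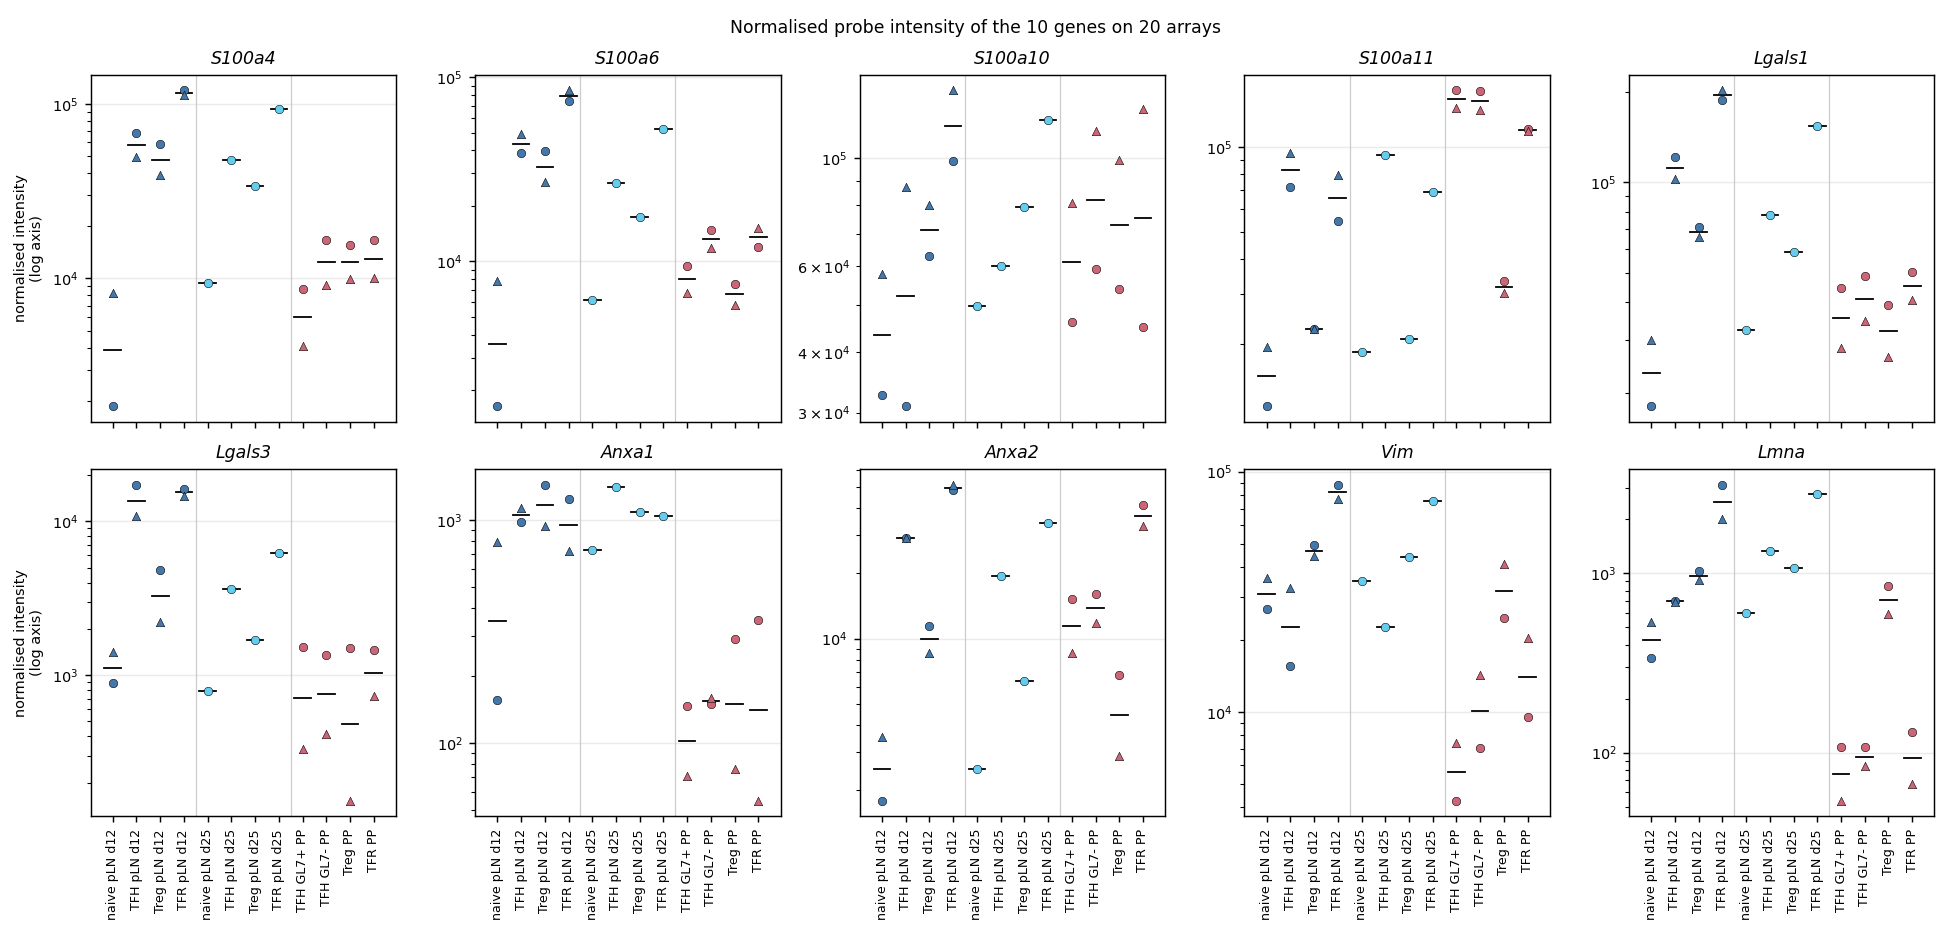
Normalised probe intensity (y axis, linear units on a log axis) of the 10 genes in the 12 groups (x axis); a circle is the first array of a group, a triangle the second, and a bar the geometric mean. Dark blue marks pLN d12, light blue pLN d25 and red PP. S100a4, S100a6, Lgals1 and Lgals3 were brightest in pLN TFR or TFH cells and dimmer than that in PP, S100a11 and Anxa2 stayed bright in PP TFR cells, and Lmna was at 67 and 130 there.

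Both galectin genes were dimmer in naive cells and in PP than in TFH, Treg and TFR cells of pLN d12. Lgals1, whose product crosslinks glycoproteins at the cell surface and is known as an effector molecule of Treg cells, gave 18044 and 29974 in naive, 65852 and 71341 in Treg, 102701 and 121717 in TFH and 187932 and 202331 in TFR cells of pLN d12. Each step of that order was free of overlap. In PP its 8 arrays ranged from 26359 to 50448, and TFR arrays at 40590 and 50448 overlapped those of GL7+ TFH cells at 28152 and 44724. The log2 difference between TFR and Treg cells was 1.51 ± 0.32 in pLN and 0.50 ± 0.32 in PP.

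Lgals3, whose product forms lattices with branched N-glycans, gave 888 and 1415 in naive, 4823 and 2215 in Treg, 17257 and 10772 in TFH and 16312 and 14509 in TFR cells of pLN d12. TFH and TFR cells overlapped. On d25 the values were lower in all 4 groups, 785 in naive, 1691 in Treg, 3638 in TFH and 6181 in TFR cells, each from 1 array. In PP the arrays of a group differed widely: the first arrays, on the slide with the high epithelial and B cell sums, gave 1353 to 1530 in all 4 groups, while the second gave 153 in Treg, 332 in GL7+ TFH, 416 in GL7- TFH and 728 in TFR cells. The first PP arrays were thus nearly level, and the order Treg, TFH, TFR was seen on the second arrays only. The part of the other cells' transcripts in this was not tested.

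The annexin genes differed from each other. Anxa2, whose product joins S100A10 at membranes, gave 1790 and 3532 in naive, 11470 and 8601 in Treg, 29138 and 29015 in TFH and 48257 and 51246 in TFR cells of pLN d12, in an order without overlap. In PP it was 6834 and 2867 in Treg, 15184 and 8561 in GL7+ TFH, 16033 and 11854 in GL7- TFH and 41141 and 33179 in TFR cells. The excess of TFR over Treg cells was thus present in both tissues, with a log2 difference of 2.32 ± 0.44 in pLN and 3.06 ± 0.44 in PP, and was larger on the second PP slide (3.53) than on the first (2.59).

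Anxa1 has a second probe, well above background on 9 of the 20 arrays, and is described by its brighter probe, which was so on all 20. That probe gave 155 and 796 in naive, 981 and 1134 in TFH, 1434 and 941 in Treg and 1233 and 725 in TFR cells of pLN d12. In PP it was 146 and 71 in GL7+ TFH, 149 and 159 in GL7- TFH, 292 and 76 in Treg and 355 and 55 in TFR cells. The TFH, Treg and TFR arrays of pLN d12 overlapped, whereas all 8 PP arrays lay below all 6 of them.

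Vim, the vimentin gene, was not low in naive cells. It gave 26797 and 35931 in naive, 15590 and 32710 in TFH, 49323 and 44724 in Treg and 88179 and 77235 in TFR cells of pLN d12. In PP it was 24548 and 41251 in Treg, 9494 and 20395 in TFR, 7072 and 14296 in GL7- TFH and 4270 and 7406 in GL7+ TFH cells. TFR cells thus were above Treg cells in pLN, by a log2 difference of 0.81 ± 0.50, and below them in PP, by a log2 difference of -1.19 ± 0.50, with no overlap in either tissue and the same sign on each slide.

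Lmna, which codes for the A-type lamins (probe at chr3:88287262-88287321, mm9, minus strand), showed the widest opposition. In pLN d12 it was 335 and 533 in naive, 704 and 690 in TFH, 1023 and 917 in Treg and 3109 and 2014 in TFR cells. In PP it was 848 and 595 in Treg but 130 and 67 in TFR, 107 and 54 in GL7+ TFH and 107 and 84 in GL7- TFH cells, all well above background. TFR cells were above Treg cells by a log2 difference of 1.37 ± 0.41 in pLN and below them by a log2 difference of -2.93 ± 0.41 in PP, and the difference between these differences was -4.30 ± 0.58. By slide the TFR minus Treg difference was 1.60 and 1.14 in pLN and -2.71 and -3.16 in PP.

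**Figure D2:**
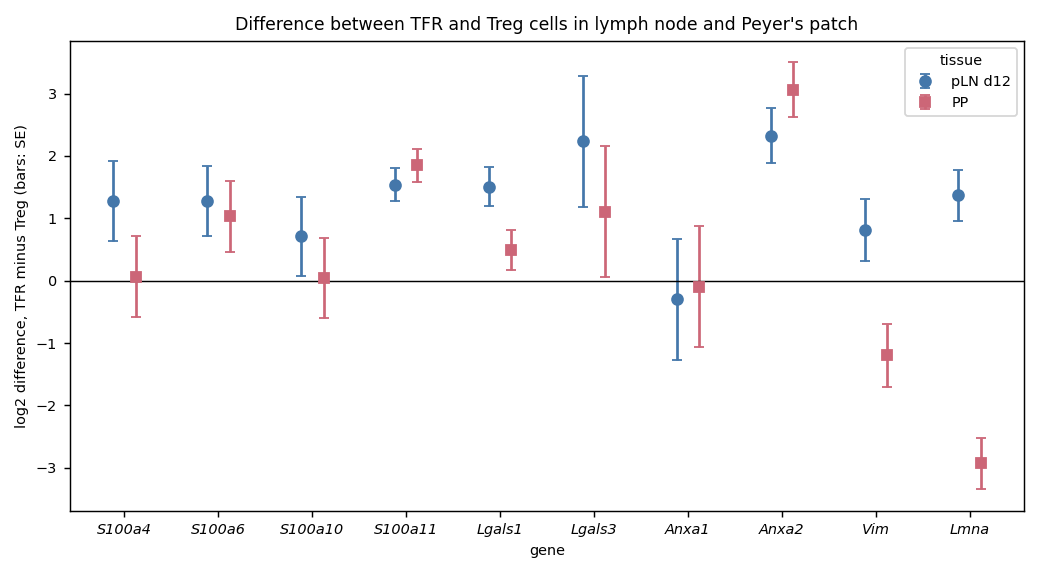
Log2 difference between TFR and Treg cells (y axis; bars are SE from the fit, n = 2 arrays per group) for each of the 10 genes (x axis) in pLN d12 (blue circles) and PP (red squares). Anxa2 and S100a11 lie above 0 in both tissues, while Vim and Lmna lie above 0 in pLN and below 0 in PP (Lmna 1.37 and -2.93).

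A gene was called in a comparison where the limma fit over 22264 tested probes gave a Benjamini-Hochberg adjusted p below 0.05 and an absolute log2 difference of at least 1. Between TFH and naive cells of pLN d12, 6 of the 10 genes were called higher and none lower, where 9.27% of all tested probes were called higher, and the genes' median log2 difference was 2.35 against -0.09 for all tested probes. The 6 were S100a4, S100a6, S100a11, Lgals1, Lgals3 and Anxa2. Between Treg and naive cells 4 were called higher (S100a4, S100a6, Lgals1 and Anxa2, against 2.86% of all tested probes), with a median of 1.55, and all 10 were higher on both Treg arrays than on both naive arrays, where 17.9% of all tested probes were. The count of called genes fell without either Treg array or the first naive array of pLN d12, as did calls over all tested probes. It was 2 without the slide of the first PP arrays, where 649 of all tested probes were called against 837 in the main fit.

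Between TFR and Treg cells, 3 genes were called higher in pLN d12 (S100a11, Lgals1 and Anxa2, against 5.79% of all tested probes) and 9 of 10 were free of overlap and higher, where 24.7% of all tested probes were. The count of called genes in pLN fell without the second Treg or the second TFR array, as did calls over all tested probes. It was 5 without the slide of the first PP arrays (1666 of all tested probes). It was also 5 with slide as a fixed or random block (2712 and 2740), against 1858 of all tested probes in the main fit. In PP, 2 were called higher (S100a11 and Anxa2, against 6.23% of all tested probes) and 1 lower (Lmna, against 3.02%). The median log2 difference of the 10 genes was 1.32 in pLN and 0.28 in PP, against -0.08 and -0.05 for all tested probes. S100a6 was higher in PP TFR cells as well, by 1.03 ± 0.57, without a call.

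Between TFR and TFH cells, Lmna alone was called higher in pLN d12, with a log2 difference of 1.84 ± 0.41 (2.81% of all tested probes were called higher). In PP, where TFR cells were set against GL7+ TFH cells, no gene was called (3.44% of all tested probes were, in either direction). This held by limma, by the series matrix values and by the fit without variance moderation. Slide as a fixed or random block gave 2 genes in PP (1376 and 1462 of all tested probes). Leaving out either PP Treg array gave 1 (758), against 765 of all tested probes in the main fit. The pLN call was lost without the first TFH array or either TFR array of pLN, where calls over all tested probes fell too. The pLN count was 2 without either TFR array of PP (1092 of all tested probes). It was 3 with slide as a fixed or random block (1835 and 1925), against 1116 of all tested probes in the main fit. Vim was 1.87 ± 0.50 higher in TFR than in TFH cells of pLN and 1.31 ± 0.50 higher than in GL7+ TFH cells in PP, without a call or overlap in either. Against GL7- TFH cells of PP, at 7072 and 14296, its TFR arrays at 9494 and 20395 overlapped. S100a11 was the gene with the most negative difference in both tissues, at -0.33 ± 0.26 in pLN and -0.36 ± 0.26 in PP.

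The tissue comparison set PP against pLN d12 in 3 cell types. In Treg cells no gene was called by limma (2.24% of all tested probes were, in either direction), although 8 of 10 were lower on both PP arrays, where 22.8% of all tested probes were, with a median log2 difference of -1.13. Without either naive array 1 gene was called, where 491 of all tested probes were against 499 in the main fit. The count rose too without the slide of the first PP arrays. In GL7+ TFH cells 6 were called lower (S100a4, S100a6, Lgals1, Lgals3, Vim and Lmna, against 2.18% of all tested probes) and in TFR cells the same 6 (against 5.39%), with medians of -2.23 and -2.56. In GL7+ TFH cells the count was 1 with slide as a random block, where 529 of all tested probes were called against 1011 in the main fit. Vim and Lgals3 each kept the call in GL7+ TFH cells in 6 of 24 settings. The largest differences in TFR cells were -4.75 ± 0.41 for Lmna, -3.90 ± 1.05 for Lgals3 and -3.16 ± 0.64 for S100a4. S100a11 was the exception in all 3 cell types, higher in PP by 0.50 ± 0.26, 0.83 ± 0.26 and 0.81 ± 0.26 without a call.

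Each PP array alone gave the same side of 0 for 9 of the 10 genes in all 3 cell types, the exception being S100a10. The second PP array, on the slide with the lower epithelial and B cell sums, lay farther below pLN than the first for 7 of the 10 genes in Treg cells, 7 in GL7+ TFH cells and 6 in TFR cells. No share over all tested probes is given beside these counts, so they describe the 10 genes only. For Lgals3 the log2 difference was -1.12 with the first and -4.42 with the second PP array in Treg cells and -3.40 and -4.40 in TFR cells. For Anxa1 in TFR cells it was -1.41 and -4.10. Vim went the other way, at -3.12 with the first and -2.02 with the second array of TFR cells. The count of called genes in GL7+ TFH cells fell without either TFH array of pLN, either GL7+ TFH array of PP or the whole first PP slide. Calls over all tested probes fell too. The count was 3 without either TFR array of pLN, where 825 of all tested probes were called against 1011 in the main fit. In TFR cells the count fell without the first TFR array of pLN, as did calls over all tested probes.

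**Figure D3:**
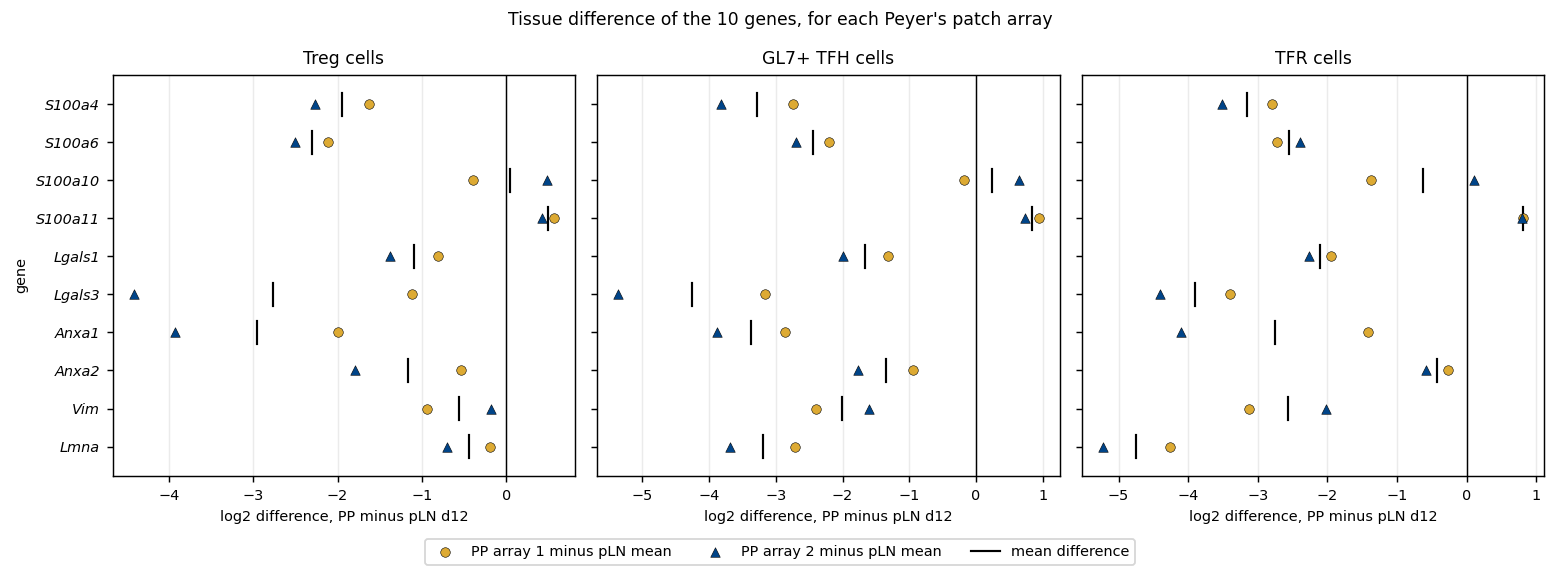
Log2 difference between PP and pLN d12 (x axis) for the 10 genes (y axis) in Treg, GL7+ TFH and TFR cells, with the first PP array (yellow circle) and the second (blue triangle) set against the mean of the 2 pLN arrays; the black bar is the mean difference. Lgals3 and Anxa1 spread widest between the PP arrays (Lgals3 -1.12 and -4.42 in Treg cells), and S100a11 lies right of 0 in each panel.

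The test of the tissue difference in the TFR minus Treg contrast called Lmna alone among the 10 genes, where 0.202% of all tested probes were called lower. With slide as a block 2 (fixed) or 3 (random) genes were called. Of all tested probes 1019 (fixed) or 1137 (random) were, against 122 in the main fit. The Lmna call was lost in 6 of the 25 alternative settings, among them those without the slide of the first PP arrays, without either pLN Treg array, without the first pLN TFR array and without the first PP Treg array, while the value stayed between -4.78 and -3.43. Vim followed with -2.01 ± 0.71, without a call, and the other 8 genes lay between -1.21 and 0.74.

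On d25, with 1 array per group and no test, the pLN order was much the same. All 10 genes were brighter in TFR than in naive cells, by log2 differences from 0.51 for Anxa1 to 3.77 for Anxa2, and 9 of 10 were brighter in TFR than in Treg cells. These counts too stand without a share over all tested probes. TFR cells gave 93112 for S100a4, 154008 for Lgals1, 75547 for Vim and 2774 for Lmna. Lgals3 was the gene with the largest shift from d12, -1.91 in TFH and -1.32 in TFR cells on the log2 scale, and Lmna in TFH cells was brighter on d25 (1323 against 704 and 690). Slide and day cannot be told apart here.

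GL7+ and GL7- TFH cells of PP were compared by value only. The log2 difference between GL7+ and GL7- cells was below 0 for 9 of the 10 genes, a count given without a share over all tested probes, and 0.02 for S100a11. It was largest for S100a4 at -1.05, for Vim at -0.84 and for S100a6 at -0.72, and 3 genes were free of overlap and lower, against 6.84% of all tested probes, S100a4, S100a6 (9477 and 6736 in GL7+ against 14812 and 11747 in GL7- cells) and Anxa1. This contrast was not tested.

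Across the 12 group means, the 45 pairs of genes had Pearson correlations from -0.58 (S100a11 with Vim) to 0.98 (S100a6 with Lgals1), with a median of 0.64, and 3 were below 0. S100a4, S100a6, Lgals1 and Lgals3 formed a block with r of 0.87 to 0.98, and Vim and Lmna a pair with r = 0.91. S100a11 was most like Anxa2 (r = 0.74) and was opposed to Vim, Lmna and Anxa1. S100a10 and Anxa2, whose products form 1 complex, had r = 0.63, and S100a10 and S100a11, whose probes lie 38.4 kb apart on chromosome 3, had r = 0.31. The groups share slides, so these values describe the profiles only.

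**Figure D4:**
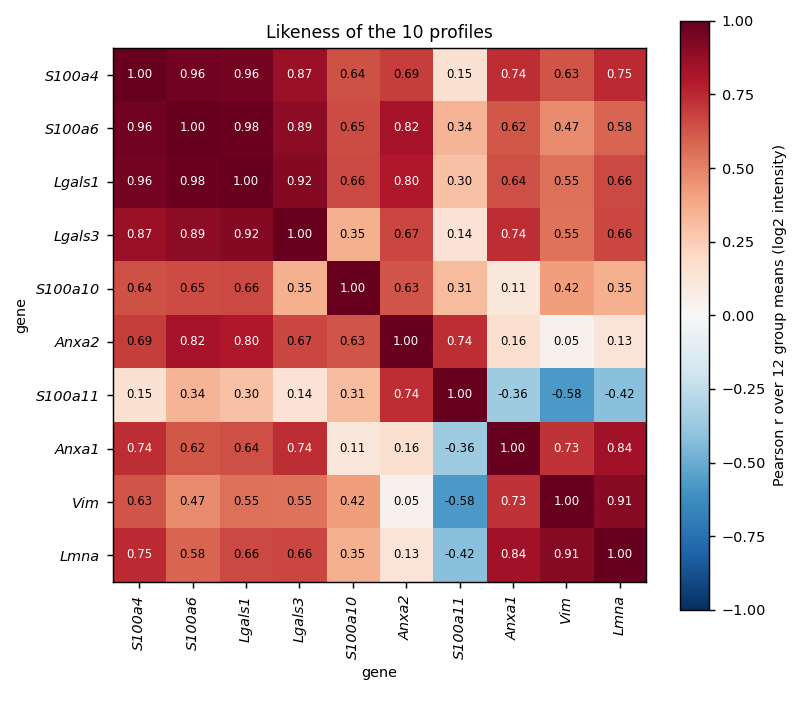
Pearson correlation (colour and printed value, scale from -1 to 1) between the 12 group means of log2 intensity for each pair of the 10 genes (both axes). S100a4, S100a6, Lgals1 and Lgals3 form a block of values from 0.87 to 0.98, and S100a11 is opposed to Vim (-0.58) and Lmna (-0.42).

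Outside the lists, the tested genes whose 12 group means were most like a member's were Zbtb32, Dgcr6 and Itgb1 for S100a4 (r = 0.96, 0.94 and 0.94), Serhl, Slc29a4 and Mtch1 for S100a6 (0.97, 0.96 and 0.96), Mtch1, Upk1a and Cdca7 for Lgals1 (0.98 each), and Polr1d, Ahcy and Nudt1 for Lgals3 (0.97, 0.96 and 0.96). For S100a11 they were Gm5068, Atcay and Phlpp2 (0.9995, 0.99 and 0.99) and for Anxa2 Uhrf1 and Espl1 (0.97 each). For S100a10 they were Ccr6, Crmp1 and C1qtnf12 (0.93, 0.93 and 0.92) and for Anxa1 Ccr10, Sh3bgrl3 and Malsu1 (0.98, 0.97 and 0.96). For Vim they were Impdh2, Eif2s1 and Lap3 (0.98, 0.98 and 0.97) and for Lmna Psmc6, Gm10653 and Pakap (0.96, 0.95 and 0.95). The mean of the 10 standardised profiles was highest in TFR cells of pLN d12 (1.31) and lowest in naive cells of pLN d12 (-1.001), and was below 0 in all 4 PP groups. Most like it were Gmds, Upk1a, Zbtb32, Cdca7, Mtch1 and Psmd1, with r from 0.96 to 0.97.

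Related genes were taken from 7 lists: the other S100 genes, galectins, annexins and intermediate filament genes, the partners of S100 proteins, annexins and filaments, the partners of lamins in the nuclear envelope, and ligands of galectins with the enzymes that build their glycans. Of 84 listed genes 62 were tested, and the members of the main list are not among them. These lists too were chosen with earlier results of these data known, so the p-values below are not independent of that choice. Between TFH and naive cells of pLN d12, 13 were called higher and 5 lower by limma with Benjamini-Hochberg adjustment over all tested probes, where 9.27% and 5.48% of all tested probes were. The counts were 5 and 1 between Treg and naive cells (2.86% and 0.898%), 9 and 2 for TFR against Treg in pLN (5.79% and 2.56%), and 5 and 3 for TFR against Treg in PP (6.23% and 3.02%). They were 5 and 1 for TFR against TFH in pLN (2.81% and 2.2%) and 0 and 1 for TFR against GL7+ TFH in PP (2.34% and 1.09%). For PP against pLN they were 1 and 0 in Treg (1.82% and 0.422%), 3 and 3 in GL7+ TFH (2.36% and 2.18%) and 5 and 11 in TFR cells (5.74% and 5.39%). No list had more than 3 genes called in 1 direction in any comparison. None of the 62 was called in the tissue difference of the TFR minus Treg contrast, where 0.548% of all tested probes were, in either direction. Limma with slide as a fixed block called 7 of the 62 there, and 1019 of all 22264 tested probes. In the main limma fit 8 of the 62 had an unadjusted p under 0.05.

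Among the other S100 genes 6 of 12 were tested. S100a1, a calcium sensor best known from muscle, rose from Treg to TFR cells in pLN (109 and 90, the latter not well above background, to 281 and 254; log2 difference 1.43 ± 0.36, limma adjusted p = 0.0277) and in PP (111 and 61 to 506 and 314; 2.27 ± 0.36, limma adjusted p = 0.00238). Its second probe gave 1.34 and 1.94. S100a3 rose from naive to TFH cells (1.65 ± 0.28, limma adjusted p = 0.00182). S100a16 was lower in TFR cells of PP than of pLN on its brighter probe (-1.485 ± 0.23, limma adjusted p = 0.00285), whereas its second probe gave 0.58 without a call.

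Among the other galectin genes 8 of 9 were tested, and 4 were called in at least 1 comparison. Lgals7 rose from naive to TFH cells of pLN d12, from 174 and 362 to 2299 and 3017 (3.39 ± 0.35, limma adjusted p = 9.27e-05). It was lower in GL7+ TFH cells of PP, at 248 and 414 (-3.04 ± 0.35, limma adjusted p = 0.0018), as Lgals1 and Lgals3 were. GL7- TFH cells of PP gave 779 and 812, and the TFH array of pLN d25 gave 701. Lgalsl, the gene of a galectin-like protein, rose in follicular cells of both tissues: TFR exceeded Treg cells by 1.61 ± 0.33 in pLN (limma adjusted p = 0.0113) and by 2.81 ± 0.33 in PP (limma adjusted p = 0.000441). Grifin, a lens galectin that binds no galactoside, fell in PP from 197 and 232 in Treg to 20 and 42 in TFR cells, the former not well above background (-2.88 ± 0.42, limma adjusted p = 0.00146). Lgals9 was higher in GL7+ TFH cells of PP than of pLN (1.45 ± 0.31, limma adjusted p = 0.0268).

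**Figure D5:**
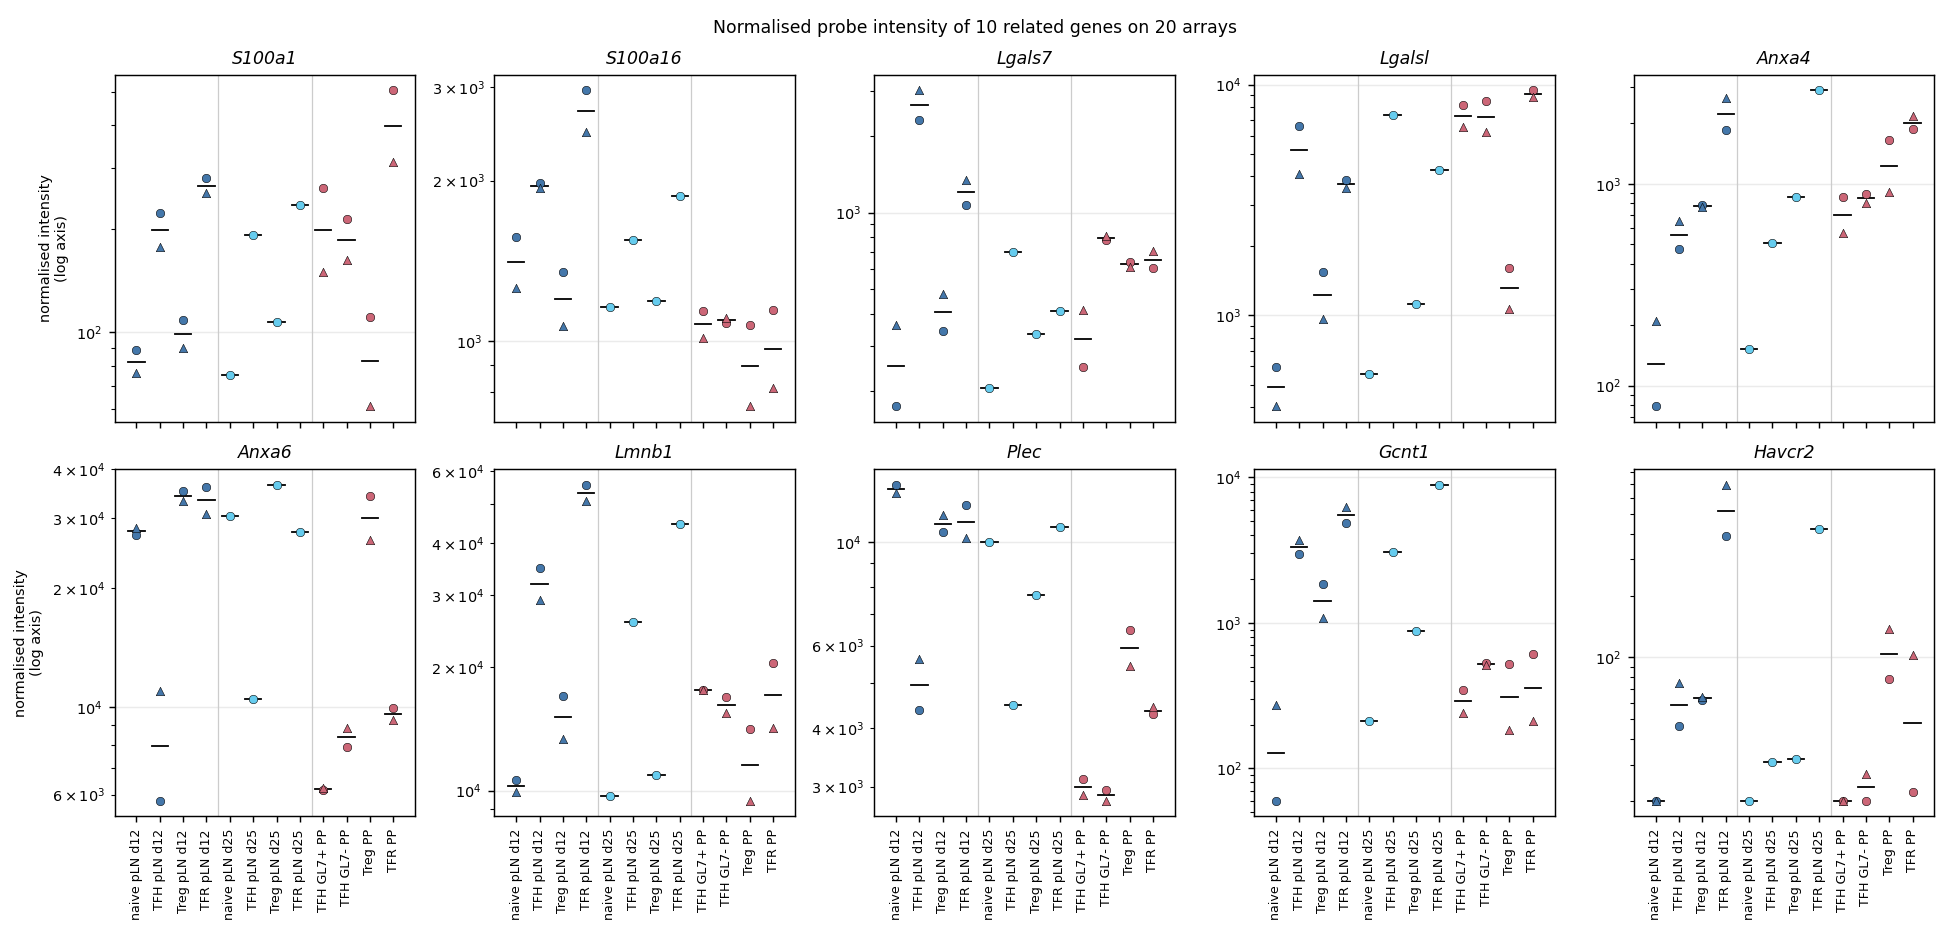
Normalised probe intensity (y axis, linear units on a log axis) of 10 related genes in the 12 groups (x axis), drawn as circles (first array), triangles (second array) and a bar for the geometric mean, with pLN d12 in dark blue, pLN d25 in light blue and PP in red. Lmnb1 and Gcnt1 were brightest in TFR cells of pLN, Lgalsl and S100a1 in TFR cells of PP, and Anxa6 was dim in every follicular group of PP.

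Among the other annexin genes 8 of 10 were tested. Anxa6, a large annexin of the plasma membrane and endosomes, stood at 27243 and 28409 in naive cells and fell to 5792 and 10945 in TFH cells of pLN (-1.81 ± 0.26, limma adjusted p = 0.000737). TFR cells of pLN gave 36063 and 30846, while those of PP had 9962 and 9288 (-1.79 ± 0.26, limma adjusted p = 0.00195). Anxa4 rose from naive to Treg cells (2.59 ± 0.44, limma adjusted p = 0.00713) and was higher in TFR than in TFH cells of pLN by 1.997 ± 0.44 (limma adjusted p = 0.0239). Anxa3 was higher in GL7+ TFH cells of PP (1821 and 895) than of pLN (180 and 134; 3.04 ± 0.63, limma adjusted p = 0.0225).

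Among the other intermediate filament genes 12 of 22 were tested. Lmnb1, the gene of lamin B1, rose from Treg to TFR cells of pLN (17025 and 13389 to 55602 and 50680; 1.81 ± 0.24, limma adjusted p = 0.00121) and was lower in TFR cells of PP (20417 and 14242; -1.64 ± 0.24, limma adjusted p = 0.00193). Treg cells of PP gave 14153 and 9448, so within PP its TFR arrays were not below its Treg arrays, whereas those of Lmna were. Ina, the gene of internexin, was higher in TFR cells of PP than of pLN on its brighter probe (4.01 ± 1.05, limma adjusted p = 0.0271), while its second probe gave -0.08. Krt18, a keratin of simple epithelia, was well above background on neither naive array and on both TFH arrays of pLN (204 and 234), at least 3.55-fold higher (limma adjusted p = 0.0412). That call was kept in 12 of 25 alternative settings. Treg cells of pLN d12 gave 174 and 150, and the brightest array was the first of PP Treg cells, at 2148, on the slide with the high epithelial sums. Krt14, a keratin of basal epithelia, fell from 395 and 318 in naive to 119 and 136 in TFH cells (-1.48 ± 0.36, limma adjusted p = 0.0145). Nefh, the gene of the heavy neurofilament chain, rose from Treg to TFR cells of pLN (1493 and 1705 to 4182 and 2541; 1.03 ± 0.26, limma adjusted p = 0.0287), and its second probe gave 1.09 without a call.

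Among the partners of S100 proteins, annexins and filaments 7 of 10 were tested. Ahnak, whose giant product binds S100A10 and annexin A2, rose from naive to TFH cells of pLN (424 and 1156 to 1805 and 4255; 1.98 ± 0.60, limma adjusted p = 0.0421) and was lower in TFR cells of PP (-2.12 ± 0.60, limma adjusted p = 0.0385). Its TFR arrays gave 1126 and 3427 in PP against 8116 and 8931 in pLN d12. The call between TFH and naive cells was kept in 9 of 25 alternative settings, and that between tissues in TFR cells in 10 of 24. The second of the 3 tested Ahnak probes was called in the same directions and the third was not called. Plec, the gene of the filament linker plectin, fell from naive to TFH cells (-1.39 ± 0.17, limma adjusted p = 0.000271), was 1.16 ± 0.17 higher in TFR than in TFH cells of pLN (limma adjusted p = 0.00279), and was lower in TFR cells of PP (-1.34 ± 0.17, limma adjusted p = 0.00106). Flna, the gene of the actin crosslinker filamin A, was lower in TFR cells of PP as well (-1.10 ± 0.20, limma adjusted p = 0.00514). Tlr4, a receptor for some extracellular S100 proteins, was well above background on both TFH arrays of pLN (161 and 123) and on neither naive array, at least 2.29-fold higher (limma adjusted p = 0.00119). Dst, the gene of the filament linker dystonin, was higher in TFR than in TFH cells of pLN (692 and 359 against 173 and 50, the last not well above background; 2.42 ± 0.56, limma adjusted p = 0.0298).

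All 12 partners of lamins at the nuclear envelope were tested, and Syne2, the gene of nesprin-2, was the only one called. It fell from naive to Treg cells (2485 and 2920 to 882 and 1113; -1.44 ± 0.19, limma adjusted p = 0.00192) and rose from Treg to TFR cells of PP (650 and 637 to 1271 and 1658; 1.17 ± 0.19, limma adjusted p = 0.00311). No other listed partner, Emd, Lbr and Tmpo among them, was called in any of the 10 comparisons.

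Among galectin ligands and glycan enzymes all 9 were tested and 5 were called. Gcnt1, the enzyme that starts core 2 O-glycans, which galectins can bind, rose from naive to TFH cells of pLN (60, not well above background, and 273 to 2990 and 3727; 4.70 ± 0.73, limma adjusted p = 0.00115) and was lower in TFR cells of PP than of pLN (608 and 210 against 4841 and 6219; -3.94 ± 0.73, limma adjusted p = 0.00595). Havcr2, which codes for TIM-3, a receptor reported to bind galectin-9, rose from Treg to TFR cells of pLN (62 and 64, the latter not well above background, to 389 and 694; 3.05 ± 0.61, limma adjusted p = 0.00935) and was lower in TFR cells of PP (22, not well above background, and 103; -3.46 ± 0.61, limma adjusted p = 0.00465). Lag3, an inhibitory receptor to which galectin-3 can bind, went the opposite way between tissues: it was higher in TFR cells of PP (19150 and 20944) than of pLN (3259 and 3997; 2.47 ± 0.34, limma adjusted p = 0.00146). Cd7, a glycoprotein bound by galectin-1, fell from Treg to TFR cells in pLN (-1.33 ± 0.27, limma adjusted p = 0.0108) and in PP (-2.14 ± 0.27, limma adjusted p = 0.00068). Mgat5, an enzyme that branches N-glycans, was well above background on both TFR arrays of PP (67 and 72). It was so on neither TFR array of pLN d12, and was at least 1.17-fold higher in PP (limma adjusted p = 0.0235). On the second TFR array of pLN d12 no probe dimmer than 88 counted as well above background, so 67 or 72 would not have counted. Mgat5 was well above background on 3 arrays in all, so only the PP TFR arrays brought it among the tested probes. No tissue difference is concluded from this call.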

How the data were processed

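Each of the 20 samples was hybridised to a 1-colour Agilent array that carries every probe 4 times, and the authors extracted the spots with Agilent Feature Extraction 10.7.3.1 (mm9 annotation). The deposited scanner files hold linear intensities, corrected for background by the scanner software and not normalised between arrays. The deposited series matrix holds intensities that the authors averaged over on-chip copies, then normalised by quantiles, brought to a common 75th percentile and floored at 20. Here those steps were rebuilt from the scanner files (geometric mean of the copies after outlier exclusion, quantile normalisation, 75th percentile scaling, floor of 20, log2), which gave values whose median absolute log2 difference from the series matrix was 0.0347 to 0.0362 per array, and the series matrix served as an alternative.

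A probe was detected on an array where at least 3 of its 4 copies were well above background. Probes detected on each of the 2 arrays of some group (22264 of 39429) were tested with limma 3.58.1 in R 4.3.3, with 1 mean per group, 8 residual degrees of freedom and Benjamini-Hochberg adjustment. The members and the gene lists were chosen with earlier results of these data known. Named are all members, related genes called in at least 1 comparison (up to 6 per list), and the 3 genes most correlated with each member, or 6 with their mean, of which 1 is not reported here. Alternatives were other scalings and background correction, all probes, slide as a block, a smaller fit, no variance moderation, and leaving out arrays. No probe had all 4 copies saturated on any array, and probes with fewer saturated copies were not counted. Per array, 43.0% to 58.0% of probes were detected, the number of arrays limiting the precision. On simulated data the test recovered 55.5% of 200 probes changed by a log2 of 2 between TFH and naive cells, and 36.5% in the tissue difference of TFR minus Treg. The simulated arrays had independent errors and no slide effect, whereas slide as a random block had a consensus correlation of 0.74 in the real data. These rates therefore hold for the simpler setting only.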

Additional observations from a re-analysis of the deposited data

Results flagged for a closer look

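Lmna is listed because its difference between TFR and Treg cells had opposite signs in the 2 tissues and the fitted difference between them passed the threshold for a call. TFR minus Treg was 1.37 ± 0.41 in pLN d12 and -2.93 ± 0.41 in PP on the log2 scale, and PP minus pLN was -4.30 ± 0.58 (n = 2 arrays per group). Lmna was among the 10 genes chosen with these intensities known, so passing the threshold gives no independent support and the value is a description. Tissue and slide cannot be told apart in it.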

How the results depend on the processing

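All 30 calls among the 10 genes kept their sign under every alternative that gave a value, of which there were up to 25, and 3 remained called under all of them. Of 73 calls among related genes 10 remained called under all. The counts of calls below moved by more than 1.5 times. In this section TFH cells of PP are the GL7+ cells. With only the compared groups in the fit, the calls were of the 10 genes 2 (TFH against naive), 0 (Treg against naive), 0 (TFR against Treg in PP), 0 (TFR against TFH in pLN), 0 (PP against pLN in TFH) and 0 (the tissue difference of TFR minus Treg), and of the related genes 8 (TFH against naive), 0 (Treg against naive), 2 (TFR against Treg in pLN), 0 (TFR against Treg in PP), 0 (TFR against TFH in pLN), 0 (TFR against TFH in PP), 0 (PP against pLN in Treg), 0 (PP against pLN in TFH) and 3 (PP against pLN in TFR). With all probes tested, the calls were of the 10 genes 2 (Treg against naive), 0 (TFR against TFH in pLN) and 3 (PP against pLN in TFH), and of the related genes 3 (Treg against naive), 0 (TFR against TFH in PP) and 1 (PP against pLN in TFH). With slide as a fixed block, the calls were of the 10 genes 5 (TFR against Treg in pLN), 3 (TFR against TFH in pLN), 2 (TFR against TFH in PP) and 2 (the tissue difference of TFR minus Treg), and of the related genes 11 (Treg against naive), 17 (TFR against Treg in pLN), 11 (TFR against TFH in pLN), 7 (TFR against TFH in PP) and 7 (the tissue difference of TFR minus Treg). With slide as a random block, the calls were of the 10 genes 5 (TFR against Treg in pLN), 3 (TFR against TFH in pLN), 2 (TFR against TFH in PP), 1 (PP against pLN in TFH) and 3 (the tissue difference of TFR minus Treg), and of the related genes 11 (Treg against naive), 17 (TFR against Treg in pLN), 11 (TFR against TFH in pLN), 7 (TFR against TFH in PP), 0 (PP against pLN in Treg), 2 (PP against pLN in TFH) and 9 (the tissue difference of TFR minus Treg). Without the slide of the first PP arrays, the calls were of the 10 genes 2 (Treg against naive), 5 (TFR against Treg in pLN), 1 (PP against pLN in Treg), 2 (PP against pLN in TFH) and 0 (the tissue difference of TFR minus Treg), and of the related genes 2 (Treg against naive), 1 (PP against pLN in TFH) and 10 (PP against pLN in TFR). With 75th percentile scaling alone, the calls were of the 10 genes 0 (TFR against TFH in pLN) and 2 (PP against pLN in Treg), and of the related genes 0 (TFR against TFH in PP), 4 (PP against pLN in Treg) and 1 (the tissue difference of TFR minus Treg). With normexp background correction, the calls were of the 10 genes 2 (TFR against TFH in pLN) and 1 (PP against pLN in Treg), and of the related genes 2 (PP against pLN in Treg) and 1 (the tissue difference of TFR minus Treg). Without variance moderation, the calls were of the 10 genes 0 (TFR against TFH in pLN) and 3 (PP against pLN in TFH), and of the related genes 0 (TFR against TFH in PP). Leaving out 1 array of pLN d12 or PP at a time gave ranges of calls among the 10 genes of 5 to 6 for TFH against naive, 0 to 4 for Treg against naive, 1 to 4 for TFR against Treg in pLN, 3 to 4 for TFR against Treg in PP, 0 to 2 for TFR against TFH in pLN, 0 to 1 for TFR against TFH in PP, 0 to 1 for PP against pLN in Treg, 1 to 6 for PP against pLN in TFH, 2 to 6 for PP against pLN in TFR and 0 to 1 for the tissue difference of TFR minus Treg. The same ranges for the related genes were 11 to 19 for TFH against naive, 1 to 7 for Treg against naive, 1 to 12 for TFR against Treg in pLN, 6 to 10 for TFR against Treg in PP, 2 to 7 for TFR against TFH in pLN, 0 to 2 for TFR against TFH in PP, 1 to 2 for PP against pLN in Treg, 1 to 7 for PP against pLN in TFH, 10 to 16 for PP against pLN in TFR and 0 to 1 for the tissue difference of TFR minus Treg. Calls over all probes ranged with the setting from 1463 to 4280 for TFH against naive, 0 to 1427 for Treg against naive, 585 to 2740 for TFR against Treg in pLN, 0 to 3126 for TFR against Treg in PP, 0 to 1925 for TFR against TFH in pLN, 0 to 1462 for TFR against TFH in PP, 0 to 539 for PP against pLN in Treg, 0 to 1040 for PP against pLN in TFH, 648 to 2671 for PP against pLN in TFR and 10 to 1137 for the tissue difference of TFR minus Treg. The fit with only the compared groups has fewer arrays behind its estimate of the spread, and in the other settings the cause was not tested. The labels carry no replicate numbers, so arrays were paired by slide, through the fixed slide block within a tissue and day and a random slide block (consensus correlation 0.74) between tissues. Day 25 has 1 array per group and gave no test.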
